A study of Bos taurus with 20 samples.

Results

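The step from estrus to the early luteal phase was described by comparing day 0 with day 5 of the estrous cycle in uterine lining (endometrium) taken from Holstein heifers. The libraries were taken by their labelled day, which gave 4 of day 0 and 4 of day 5, so 8 of the 20 in the series, and all 27607 gene IDs of the count tables were considered. Day 0 is estrus, the time of sexual receptivity. All animals were virgin, non-lactating heifers, at least 7 months old and at least 340 kg in weight. Every group, day 0 included, had been synchronized: the heifers received 100 μg of a gonadotropin-releasing hormone analog and an intravaginal device with 1.38 g of progesterone, then cloprostenol, a prostaglandin F2α analog, at 500 μg per dose. The first dose was given after 96 hours and the second at 120 hours, when the device was taken out. Each library came from 1 biopsy, with random allotment of heifers to a day and 4 heifers per day, so the spread between libraries of a day is that between animals of this breed after this treatment.

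In the cow, estrogen from the preovulatory follicle dominates the uterus at estrus, and progesterone is low. After ovulation the follicle turns into a corpus luteum, whose progesterone rises over the following days and, through receptors in stroma and epithelium, changes what the uterine glands secrete into the lumen. This secretion feeds the embryo, which reaches the uterus in the first days after ovulation, before it implants. By this general course, day 0 precedes the rise of progesterone and day 5 follows its start. Hormone levels of these heifers were not used here.

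The tables give Ensembl cattle gene IDs without names. A table of 37063 named cattle genes held 0 of the 27607 IDs. Genes are therefore described as groups defined by direction, size, abundance and switching, and 4 IDs are printed. The endometrial label could not be set against epithelial or stromal markers for the same reason. A biopsy mixes cell types, so fewer cells of a type and less RNA per cell cannot be told apart in any value that follows. Total counts ran from 22462099 to 26644679 over the 8 libraries, and 1 count was worth 0.0391 to 0.0492 CPM, the count scaled to library size and corrected for RNA composition by TMM factors.

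Day 5 replicate 1 stood apart from its day before any gene was tested. Its log2 CPM correlated across 16947 IDs with the other 3 day 5 libraries at r = 0.923 to 0.929, whereas these 3 correlated with each other at 0.975 to 0.977 and the 4 day 0 libraries with each other at 0.967 to 0.975. Its correlations with day 0 libraries were of the same size, 0.923 to 0.926. They lay within the 0.911 to 0.934 at which day 5 replicates 2 to 4 correlated with day 0. Replicate 1 correlated more highly with day 14 replicates 1, 2 and 3, at 0.931 to 0.948, and with day 18 replicates 1, 2 and 4, at 0.938 to 0.957, than with any library of its own day. This was not so with day 14 replicate 4 (0.928), day 18 replicate 3 (0.871) or day 10 (0.881 to 0.926). Day 5 replicates 2 to 4 correlated with the same day 14 libraries at 0.933 to 0.949, so the day 14 values were not particular to replicate 1. With the same day 18 libraries they correlated at 0.909 to 0.949. IDs are not independent replicates, so these correlations describe libraries that share 1 set of IDs. The biological coefficient of variation (the relative spread between animals beyond counting error) was 0.275 on day 0 and 0.368 on day 5, and it was 0.236 on day 5 without replicate 1, against 0.394 to 0.403 without any other day 5 library. Several results are given with and without this library, among them the numbers of calls, the switches and the per-library values tested. Results without such a statement include it.

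Between estrus and day 5 the genes that rose moved further than those that fell. With edgeR's quasi-likelihood test and a Benjamini-Hochberg adjusted p under 0.05, 751 of 16947 tested genes rose (4.43%) and 702 fell (4.14%), together 8.57%. A fit of the 8 libraries of both days alone called 1945 rises and 1574 falls, and DESeq2 on all 20 libraries 1343 and 1226. The middle 50% of the genes that rose had log2 fold changes from 1.05 to 2.78, and those of the genes that fell lay from −1.64 to −0.69, while the median over all tested genes was 0.02. Changes under 2-fold made up 171 of the rises (22.8%) and 352 of the falls (50.1%). Between 2-fold and 4-fold there were 284 rises and 225 falls, between 4-fold and 16-fold 232 rises and 98 falls, and at 16-fold or more 64 rises and 27 falls. Called rises of at least 4-fold were thus 1.75% of the tested genes and such falls 0.738%.

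The larger changes were those of scarcer transcripts. The genes that rose by 16-fold or more had a median of 7.19 CPM over the 8 libraries, and those that rose by less than 2-fold one of 44.4 CPM. Among genes that fell, the median was 5.37 CPM at 16-fold or more and 65.9 CPM below 2-fold. A scarce gene needs a larger change to pass the test, since the median SE of the log2 fold change was 0.68 below 1 CPM and 0.22 between 100 and 1000 CPM.

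**Figure D1:**
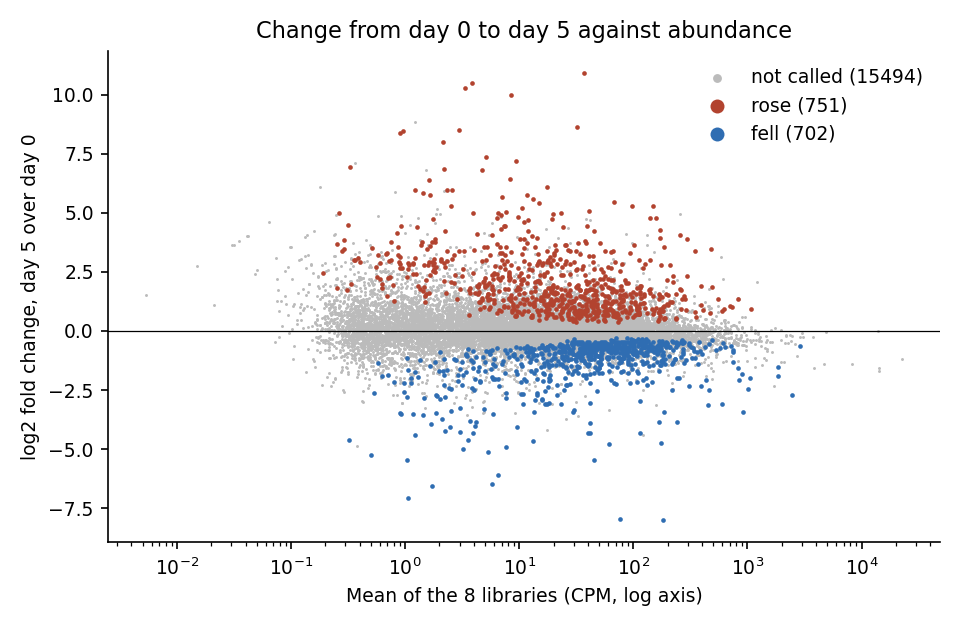
Log2 fold change from day 0 to day 5 of each of the 16947 tested gene IDs (vertical axis) against its mean over the 8 libraries in CPM (log axis). Red points are the 751 that rose and blue points the 702 that fell by the edgeR test; the largest changes lie to the left of the centre, and the most abundant IDs lie mostly below 0.

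Most called genes separated both days completely. All 4 libraries of one day lay above all 4 of the other in 4113 tested genes (24.3%), 2080 with day 5 above (12.3%) and 2033 with day 5 below (12.0%). Among the called genes this held for 635 of the 751 that rose and 661 of the 702 that fell; the test had used the same values, so this is a description. The range of the day 0 libraries held day 5 replicate 1 in 85 of the genes that rose and in 19 of those that fell. Over all 16947 tested genes it did so in 6135, and the calls had used the same values. Relative to the day 0 mean, the genes that rose averaged 1.26 on the log2 CPM scale in day 5 replicate 1, against 2.32, 1.82 and 1.98 in replicates 2, 3 and 4. The genes that fell averaged −1.27 in replicate 1 and −1.44, −1.26 and −1.29 in the other 3. Replicate 1 was the lowest of its day for the group that rose; it had taken part in the choice of both groups, and its position on genes chosen without it is given further on.

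The number of calls depended strongly on single libraries, and no called gene changed direction when 1 of the 8 was left out. Without day 0 replicate 1, 2, 3 or 4, 253, 276, 400 or 264 genes rose and 325, 357, 497 or 343 fell. Without day 5 replicate 2, 3 or 4, 206, 494 or 378 rose and 228, 404 or 368 fell. Without day 5 replicate 1 the counts were 756 and 622, with 582 and 498 of the original genes among them. Rises of at least 4-fold numbered 296 with all libraries, 333 without day 5 replicate 1 and 106 without replicate 2; such falls numbered 125, 141 and 67. A core of 395 genes, 27.2% of the 1453 called, was called whichever of the 8 libraries was left out. It held 179 that rose and 216 that fell, and 163 of the core had changed at least 4-fold. Another 142 called genes, 65 that rose and 77 that fell, were called in none of these 8 fits. Scaling by total counts alone gave 1368 rises and 364 falls, so that 79.0% rose in place of 51.7%; over all tested genes it moved the median log2 fold change to 0.21.

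RNA was spread over more genes on day 5 than at estrus. The smallest number of IDs that together held 50% of a library's counts was 781, 721, 796 and 804 in day 0 replicates 1 to 4 and 1110, 1118, 1102 and 1146 in day 5 replicates 1 to 4. The means were 775.5 ± 37.6 and 1119 ± 19.1 (SD, n = 4 each), and the ranges did not overlap (two-sided exact permutation p = 0.0286, the smallest that 4 against 4 libraries allow; 0.0429 after Benjamini-Hochberg adjustment over the 3 per-library values tested). In each library the top 10 IDs by count held 11.8%, 12.1%, 11.5% and 11.4% of the total on day 0 and 6.07%, 6.63%, 8.07% and 6.09% on day 5, a mean of 11.7% ± 0.340 against 6.71% ± 0.937 (SD, n = 4 each; exact permutation p = 0.0286, adjusted 0.0429). In both measures day 5 replicate 1 lay with its day or close to it. Without it the difference was 346.5 IDs instead of 343.5 and −4.79 percentage points instead of −5.00, in a design of 4 against 3 libraries that cannot give a p below 0.0571.

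This loss at the top was shared by many abundant transcripts. All of the 10 IDs with the highest day 0 mean had a lower mean on day 5, 6 of them without overlap between the days, against 12.0% of all tested genes, and 1 of the 10 was called as falling, against 4.14%. Of the 100 highest on day 0, 94 had a lower day 5 mean, 52 were below every day 0 library in all 4 day 5 libraries (12.0% over all tested genes), 14 were called as falling (4.14% over all), and 0 lay above every day 0 library in all 4 day 5 libraries (12.3% over all). Together these 100 held 25.2% of the counts on day 0 and 16.3% on day 5. Being chosen as highest on day 0 favours a lower value on day 5. In the other direction, 9 of the 100 IDs with the highest day 5 mean were called as rising and 3 as falling, against 4.43% and 4.14% of all tested genes, and 71 IDs were in both lists.

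The genes called as rising held 1.88% to 2.20% of the counts of each day 0 library. On day 5 they held 4.44% in replicate 1 and 7.79%, 5.57% and 6.44% in replicates 2, 3 and 4. The genes called as falling held 7.64% to 10.1% on day 0 and 4.13% to 4.75% on day 5. The mean difference was 4.07 percentage points for the genes that rose and −4.30 for those that fell. Both groups were called on these same libraries, so the direction of both differences was fixed by the choice.

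The number of IDs detected at 0.1 CPM or more differed less. It was 17602, 17493, 17688 and 17837 on day 0 and 17658, 17992, 17992 and 17950 on day 5. The days overlapped through day 5 replicate 1, and the difference of 243 IDs did not pass (exact permutation p = 0.0857, also 0.0857 after adjustment). Without that library the difference was 323 IDs, with p = 0.0571 by the exact permutation test, the smallest that 4 against 3 allow.

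The balance of rises and falls turned over with abundance. Tested genes were divided by their mean over the 8 libraries. Below 1 CPM, 44 of 1969 genes rose and 11 fell, so 80% of the calls were rises. Between 1 and 10 CPM, 194 of 4424 rose and 110 fell, and between 10 and 100 CPM, 407 of 8299 rose and 398 fell, or 63.8% and 50.6% rises among the calls. Between 100 and 1000 CPM the falls led, with 105 rises and 177 falls among 2189 genes, and at 1000 CPM or more 1 of 66 genes rose and 6 fell.

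Over all genes of a class, called or not, the centre of the changes also moved down with abundance. The median log2 fold change was 0.20 below 1 CPM, 0.10 from 1 to 10, 0.01 from 10 to 100, −0.11 from 100 to 1000 and −0.46 at 1000 CPM or more. At the scarce end this order did not hold in a pair of alternatives: without a low-count filter the medians were 0 below 1 CPM and 0.11 from 1 to 10 CPM, and in the fit of 8 libraries they were 0.10 and 0.11. Of the 66 most abundant genes, 30 lay lower in all 4 day 5 libraries than in any day 0 library (45.5%) and 2 lay higher (3.03%), against 12.0% and 12.3% of all tested genes. Below 1 CPM, 68 lay lower (3.45%) and 162 higher (8.23%), both under the shares over all genes. These 66 genes held 21.8% of the counts on day 0 and 14.3% on day 5, whereas the 8299 genes between 10 and 100 CPM held 29.4% and 34.2%. The order of the classes does not hang on day 5 replicate 1, without which rises made up 78.9%, 67.0%, 53.2%, 42.1% and 14.3% of the calls from the scarcest to the most abundant class. The share of rises fell from each class to the next in all 15 alternatives tried. Its level moved with the scaling: with total counts alone it was 88.9%, 82.6%, 80.3%, 67.4% and 16.7%, so rises then led between 100 and 1000 CPM as well. At the scarce end it also moved with the filter. Without a low-count filter it was 66.7% below 1 CPM and 64.3% from 1 to 10 CPM, against 80% and 63.8% with it.

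**Figure D2:**
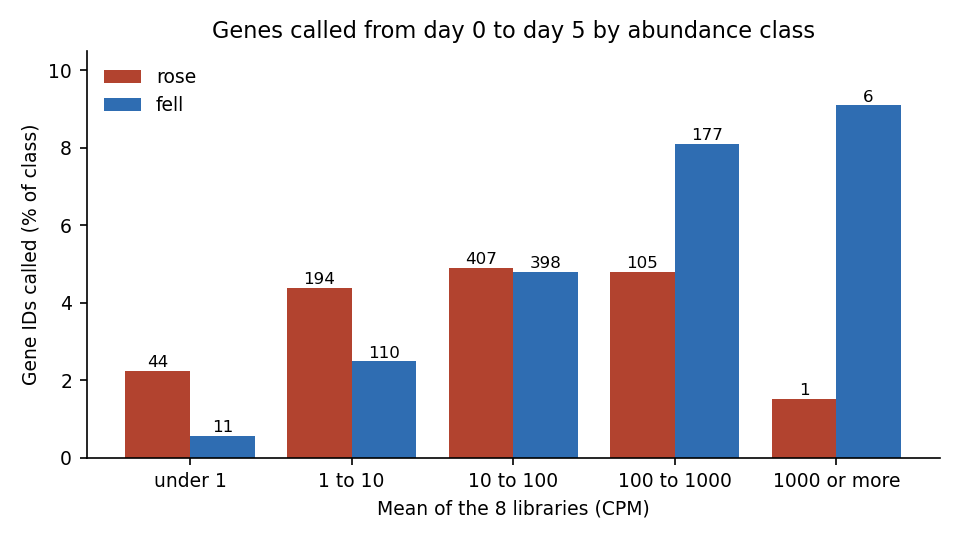
Percentage of the tested gene IDs in each abundance class (mean CPM of the 8 libraries) that rose (red) or fell (blue) by the edgeR test, with the number of IDs above each bar. Rises outnumber falls by 44 to 11 in the scarcest class and falls outnumber rises by 177 to 105 between 100 and 1000 CPM.

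Libraries of a day differed most in scarce genes, where counting error adds to the spread between animals. The median SD of log2 CPM between the 4 day 0 libraries was 0.56 below 1 CPM, 0.39 from 1 to 10 CPM, 0.22 from 10 to 100 CPM, 0.19 from 100 to 1000 CPM and 0.23 at 1000 CPM or more. On day 5 it was 0.61, 0.43, 0.25, 0.20 and 0.30 in these classes, and 0.49, 0.32, 0.17, 0.14 and 0.18 over replicates 2 to 4 alone. The most abundant class was thus more variable than the one below it. In each class the day 5 spread was therefore above that of day 0 with replicate 1 and below it without.

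Genes that went from next to no counts to clear expression, or back, were few. Nearly all of them were switched on when 1 library was allowed to miss, and 1 in each direction was left when none was. A gene counted as off on a day when it was under 0.1 CPM in all 4 libraries, which here is at most 2 counts in each, and on when it reached 1 CPM in at least 3 of 4. By this rule 17 of the 27607 IDs were switched on from day 0 to day 5 and 1 was switched off. Of the 17, 6 had 0 counts in all day 0 libraries, which allows up to 0.0331 CPM over that day (3 counts in the 4 libraries together, counting error only), and 14 had at most 3 counts there. Their day 5 means ran from 1.10 to 73.8 CPM with a median of 3.24, and 3 of them reached 10 CPM. The edgeR test covered 16 of the 17 and called 14, against 4.43% of all tested genes called as rising; the rule rests on the same values, so this count supports nothing further. The ID switched off had 67, 38, 51 and 34 counts in day 0 replicates 1 to 4 (3.04, 1.87, 2.16 and 1.38 CPM) and 1, 0, 0 and 0 counts in day 5 replicates 1 to 4, and it was called.

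Hardly any of the switched-on genes were on in day 5 replicate 1. All 17 were at 1 CPM or more in each of day 5 replicates 2, 3 and 4, where they summed to 5414, 4918 and 4575 counts. In replicate 1 only 1 of the 17 reached 1 CPM and 8 stayed under 0.1 CPM, with 118 counts in sum, against 6 to 11 counts in each day 0 library. With 1 CPM required in all 4 libraries of the day when a gene was on, 1 ID was switched on and 1 off. Without replicate 1 and with 1 CPM in at least 2 of the 3 others, 22 IDs were switched on and 4 off. Leaving out a library in this way could only keep or add IDs. A looser limit of 0.2 CPM for off gave 32 and 4, and a stricter one of 2 CPM for on gave 11 and 0.

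The switched-on genes were seen less widely later in the cycle. On day 10, 8, 10, 2 and 11 of the 17 were at 1 CPM or more in replicates 1 to 4, on day 14 they numbered 5, 8, 4 and 4, and on day 18 0, 4, 2 and 3. At least 3 of 4 libraries reached 1 CPM for 5 of the 17 on day 10, 4 on day 14 and 1 on day 18. Since the 17 were chosen for being high on day 5, fewer on another day is a description only. By the same rule, 5 IDs were off on day 0 and on by day 10, 6 on by day 14 and 1 on by day 18; all these counts share the day 0 libraries.

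**Figure D3:**
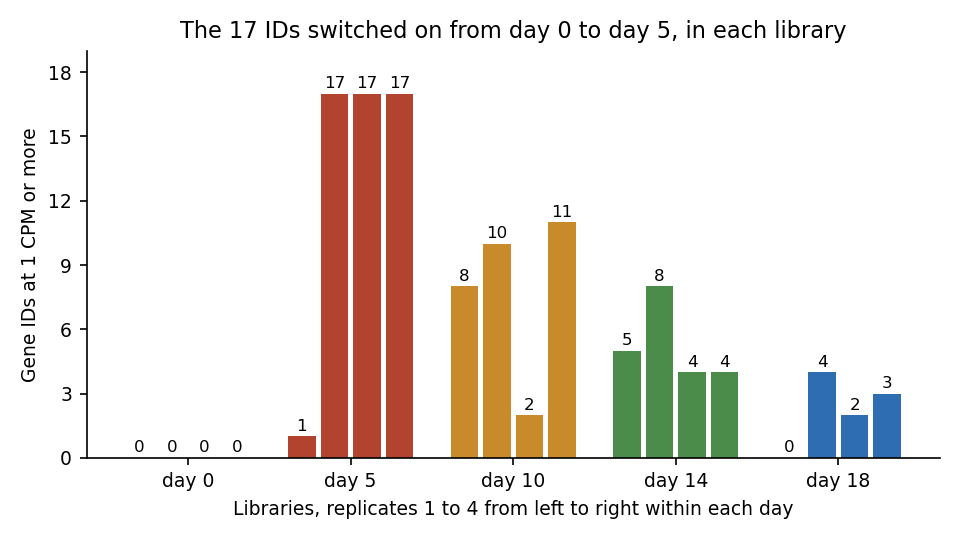
Number of the 17 gene IDs switched on from day 0 to day 5 that were at 1 CPM or more (vertical axis) in each of the 20 libraries, with replicates 1 to 4 from left to right within each day. Day 5 replicate 1 has 1 of the 17 and the other 3 day 5 libraries have all 17.

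Each library was then placed between both days on genes that it had not helped to choose. For each of the 8 libraries in turn, genes were called in the edgeR fit without it, and its position was the median over these genes of its distance from the day 0 mean, divided by the distance from the day 0 to the day 5 mean of the remaining libraries (log2 CPM), so that 0 is day 0 and 1 is day 5. Day 0 replicates 1, 2 and 4 stood at 0.0139 (578 genes), 0.0476 (633) and 0.0319 (607). Day 0 replicate 3 stood at 0.224 (897). Day 5 replicates 2, 3 and 4 stood at 1.20 (434), 0.875 (898) and 0.933 (746), and day 5 replicate 1 at 0.562 (1378). All 4 day 5 libraries thus lay nearer to day 5 than any day 0 library did, with replicate 1 about midway.

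The position of day 5 replicate 1 differed by direction. On the 756 genes that rose without it, its median position was 0.401, and 42.6% of them were nearer to day 5 than to day 0 in it. On the 622 genes that fell it was at 0.731, and 70.1% were nearer to day 5. The other 3 day 5 libraries had 90.1% to 97.1% of their rising genes and 92.3% to 98.7% of their falling genes nearer to day 5. Their genes and day 5 mean included replicate 1, whereas those used for replicate 1 did not, so these shares are not strictly alike. Day 0 replicate 3 also differed by direction, at 0.135 on the genes that rose and 0.307 on those that fell. On genes changed at least 4-fold the positions of day 5 replicate 1 were 0.364 and 0.737.

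**Figure D4:**
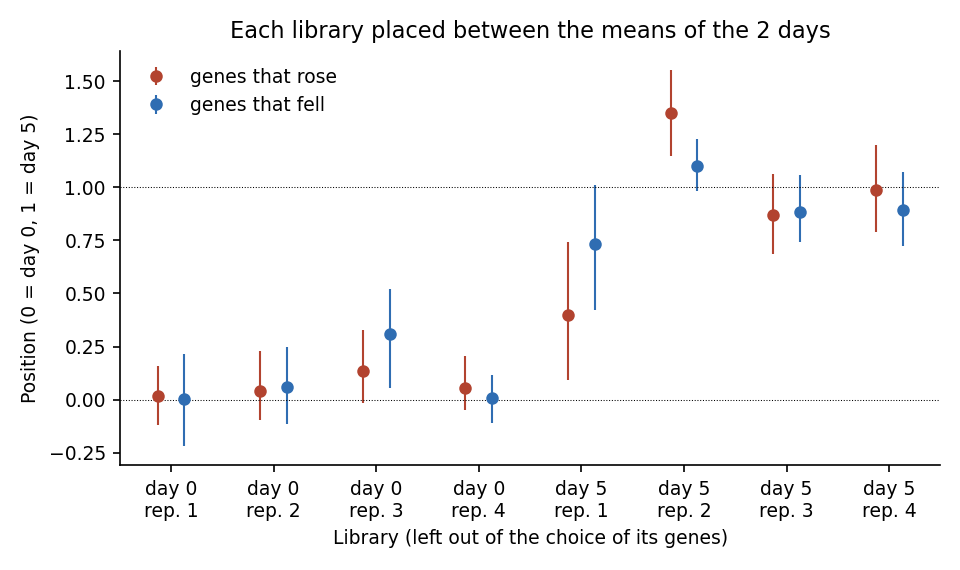
Position of each of the 8 libraries between the day 0 mean (0) and the day 5 mean (1), as the median over the genes called without that library, for genes that rose (red) and fell (blue). Bars span the middle 50% of genes; day 5 replicate 1 is at 0.401 for genes that rose and 0.731 for genes that fell.

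Day 5 replicate 1 lay outside its own day in far more IDs than any other library of both days. It was at least 4-fold outside the range of the other 3 day 5 libraries in 523 of the 14983 IDs whose mean was 1 CPM or more, below in 376 and above in 147. The other 3 day 5 libraries were outside their own day in this way in 8 to 29 IDs, and the day 0 libraries in 23 to 37. In 451 of the 523 IDs the day 0 mean lay on the same side as replicate 1 (86.2%), as it did in 22 of 27, 8 of 8 and 28 of 29 such IDs of day 5 replicates 2, 3 and 4, so this share was not particular to replicate 1. In 382 of the 523 IDs replicate 1 was also beyond all 4 day 0 libraries. Such IDs of day 5 replicates 2, 3 and 4 were beyond all day 0 libraries in 22 of 27, 4 of 8 and 11 of 29. Those of day 0 replicates 1 to 4 were beyond all day 5 libraries in 15 of 23, 17 of 23, 23 of 37 and 18 of 24. This share was thus not particular to replicate 1 either, and the IDs had been picked for its extreme values. Of the 376 in which it was low, 88 were among the genes called as rising, against 4.43% of all tested genes; the 376 had been chosen for higher values in replicates 2 to 4, so nothing is read from this.

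These IDs can be followed through the other libraries, with the reservation that they were picked for the value in replicate 1. Relative to the mean of day 5 replicates 2 to 4, the 376 low IDs averaged −3.57 in replicate 1 on the log2 CPM scale, −2.14 to −1.81 in the day 0 libraries, −2.36, −0.78, −2.25 and −1.21 in day 10 replicates 1 to 4, −2.29 to −1.49 on day 14 and −3.16 to −2.10 on day 18. The 147 high IDs averaged 3.56 in replicate 1, 0.85 to 1.22 on day 0, 0.61 to 2.22 on day 10, 1.30 to 2.24 on day 14 and 1.04 to 2.22 on day 18. On the genes called without replicate 1, the day 18 libraries were placed at 0.0881 to 0.524 for those that rose and 0.456 to 0.730 for those that fell, a range that holds or nearly reaches the 0.401 and 0.731 of day 5 replicate 1. The day 14 libraries were at 0.466 to 0.618 and 0.642 to 0.769, and the day 10 libraries at 0.470 to 0.790 and 0.761 to 0.914.

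Of the 4 IDs printed, 2 rose and 2 fell. Each was taken for the smallest p or for the highest abundance among changes of at least 4-fold. No overlap between the days was also required, so the separation of the days in all 4 IDs was fixed by the choice. ENSBTAG00000017354 had the smallest p of the genes that rose. It was at 3.13, 2.95, 3.31 and 2.75 CPM in day 0 replicates 1 to 4 and at 8.10, 64.7, 37.9 and 41.6 CPM in day 5 replicates 1 to 4. The day 0 libraries lay within a narrow band, and every day 5 library was above it, with replicate 1 the lowest. The means were 3.04 ± 0.240 and 38.1 ± 23.2 CPM (SD, n = 4 each), and the log2 fold change was 3.65 (SE 0.42, edgeR adjusted p = 0.000457). Without day 5 replicate 1 the edgeR adjusted p was 3.02e-07; over 14 alternatives it ranged from 7.51e-16 to 0.00391. On days 10, 14 and 18 ENSBTAG00000017354 averaged 12.7 ± 1.59, 7.28 ± 1.01 and 4.35 ± 1.18 CPM (SD, n = 4 each).

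ENSBTAG00000004555 was the most abundant of the genes that rose at least 4-fold, and its call depended on single libraries. It was at 68.2, 65.7, 100.2 and 83.4 CPM in day 0 replicates 1 to 4 and at 330.8, 1710, 583 and 888 CPM in day 5 replicates 1 to 4. The days did not overlap, but the day 5 libraries ranged widely. The means were 79.4 ± 15.9 and 878 ± 600 CPM (SD, n = 4 each), which moved it from rank 2938 to rank 71 by day mean, and the log2 fold change was 3.47 (SE 1.04, edgeR adjusted p = 0.0472). The edgeR adjusted p exceeded 0.05 in 9 of 14 alternatives: it was 0.12, 0.119, 0.0891 and 0.114 without day 0 replicates 1 to 4, 0.142, 0.0648 and 0.0797 without day 5 replicates 2 to 4, 0.0575 with no low-count filter and 0.0517 with the replicate number as a block. Its level varied between animals later as well: on day 10 it was at 327, 1748, 38.4 and 1527 CPM in replicates 1 to 4, on day 14 at 1446, 1852, 950.1 and 644 CPM and on day 18 at 83.9, 719, 11.8 and 399 CPM.

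ENSBTAG00000014841 had the smallest p of all tested genes. It was at 171, 141, 104 and 141 CPM in day 0 replicates 1 to 4 and at 46.0, 38.1, 39.0 and 38.4 CPM in day 5 replicates 1 to 4. The days did not overlap, and day 5 replicate 1 was the highest of its day, with the others at 38.1 to 39.0 CPM. The means were 139 ± 27.3 and 40.4 ± 3.76 CPM (SD, n = 4 each). The change was −1.79 on the log2 scale (SE 0.17; adjusted p = 0.00011 by edgeR). Its edgeR adjusted p ranged from 1.98e-21 to 0.00163 over 14 alternatives. The later days stayed near the day 5 level, at 43.4 ± 4.26, 47.0 ± 8.24 and 50.4 ± 10.3 CPM on days 10, 14 and 18 (SD, n = 4 each).

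ENSBTAG00000014824 was the most abundant of the genes that fell at least 4-fold. It was at 6208, 4565, 2405 and 4018 CPM in day 0 replicates 1 to 4, which made it rank 9 by day mean, and at 608, 599.9, 768 and 671 CPM in day 5 replicates 1 to 4, or rank 124. The lowest day 0 library, replicate 3, was still well above the highest of day 5, and day 5 replicate 1 lay within its day. The means were 4299 ± 1569 and 661 ± 77.5 CPM (SD, n = 4 each). The change was −2.70 on the log2 scale (SE 0.43; adjusted p = 0.0023 by edgeR, and 1.21e-08 to 0.0134 over 14 alternatives). On days 10, 14 and 18 ENSBTAG00000014824 averaged 387 ± 182, 481 ± 153 and 600.4 ± 381 CPM (SD, n = 4 each).

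**Figure D5:**
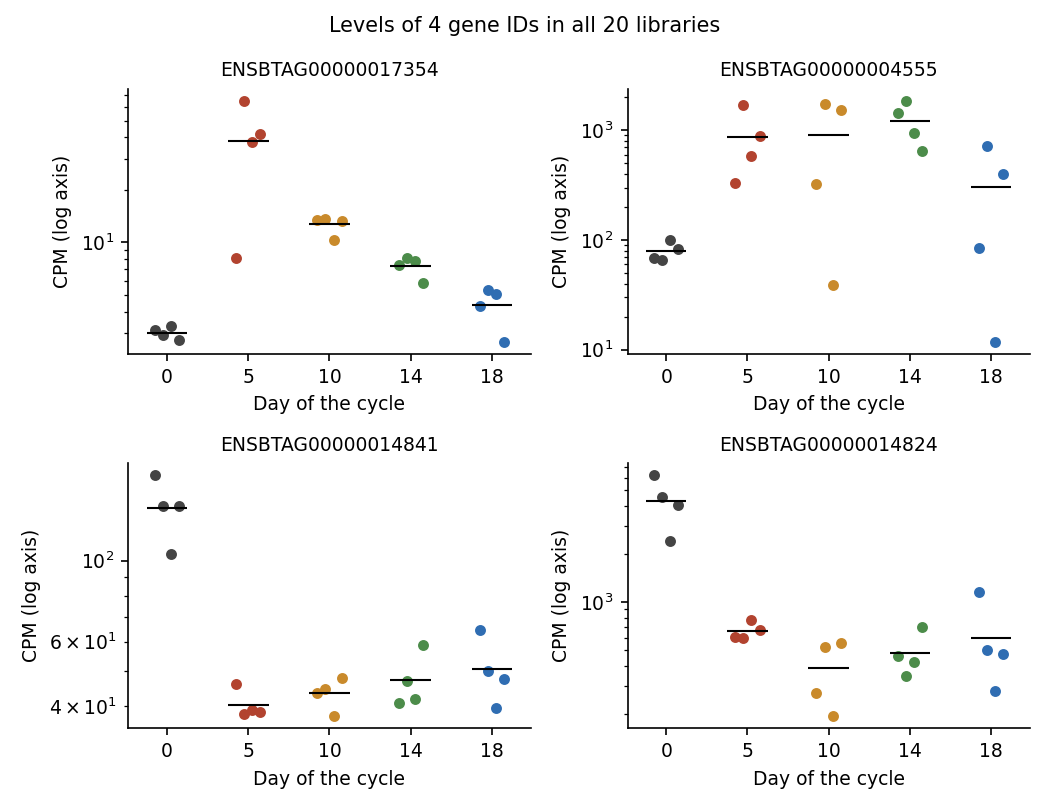
CPM (log axis) of 4 gene IDs in each of the 20 libraries by day of the cycle; points are libraries, in replicate order from left to right, and black lines are day means. The upper 2 IDs rose and the lower 2 fell from day 0 to day 5, and day 5 replicate 1 is the lowest of its day for both IDs that rose.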

How the data were processed

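The authors deposited raw counts per gene ID, 1 table per library; per the file headers each holds 1 sample. RNA was poly(A)-selected and libraries were made with a stranded kit, per the labels' protocols. FastQC, STAR and edgeR are named, without roles or versions, in the submitters' processing notes. The build, annotation, counter and its use of strand were not given in the sources used here, so reads of antisense partners or near-identical copies may not be told apart.

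Counts were tested in R 4.3.3 with edgeR 4.0.16: filterByExpr (16947 of 27607 IDs), TMM factors, dispersions over all 20 libraries, a robust quasi-likelihood fit with 1 mean per day, and the contrast of day 5 minus day 0, Benjamini-Hochberg adjusted. TMM-scaled totals gave CPM; log2 CPM has 2 as its prior count. The SE is the log2 fold change divided by the square root of F. Per-library values were compared by exact permutation tests, two-sided, in Python 3.11.15 with scipy 1.17.1. Between libraries of a day, chi-square per degree of freedom was 42.3 to 168 over 12 pairs, so none was counted as a repeat. The test was checked on simulated counts with 200 changed IDs. No library was set apart from its day there, so this check could not show how day 5 replicate 1 bears on the calls.

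Alternatives were RLE factors, total counts, no filter, DESeq2 1.42.0, only the 8 libraries, a replicate block, each library left out, and other limits for switches, positions and detection. A fit of 7 libraries, the abundance classes under each alternative and the placing of later days were added after the data were examined. Members, rules and lists were chosen with earlier results of these data known. Named IDs had adjusted p under 0.05, at least 5 CPM and no overlap between the days: per direction the smallest p, and the highest mean CPM among changes of at least 4-fold. Lists of named genes were not used, since no ID had a name. Figures used matplotlib 3.10.9.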

Additional observations from a re-analysis of the deposited data

Results flagged for a closer look

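In 26 groups of 4 values, a single library stood far from the other 3 in 7; chance alone flags about 1 in 20 groups. Many of these groups share libraries and genes, and some hold genes chosen on the same values, so the number is not set against that rate. Day 5 replicate 1 was the one in 4 of the 7. It had 17658 IDs at 0.1 CPM or more, against 17950 to 17992 in the others of its day. It had 523 IDs at least 4-fold outside the other 3, against 8 to 29. It had 1 of the 17 switched-on IDs at 1 CPM or more, against 17 in each of the others, which the rule for these IDs made likely, since it lets 1 library miss. Its level of ENSBTAG00000014841 was 46.0 CPM, against 38.1 to 39.0.

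Day 0 replicate 3 stood apart from its day by its position, 0.224 against 0.0139 to 0.0476, and by 37 IDs at least 4-fold outside the other 3, against 23 to 24. In day 5 replicate 2 the genes called as falling held 4.13% of the counts, against 4.68% to 4.75% in the other 3.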

How the results depend on the processing

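The counts of 751 rises and 702 falls were 1343 and 1226 with DESeq2, 1945 and 1574 in a fit of the 8 libraries alone, 2560 and 2097 in one of these less day 5 replicate 1, and 1368 and 364 with total counts alone. With 1 library left out they were 206 to 756 and 228 to 622. Rises of at least 4-fold (296) ranged from 106 to 333 and such falls (125) from 67 to 141 with 1 library left out, and were 550 and 253 in the fit of 7 libraries. The cause of these shifts was not tested. Deviations of same-numbered libraries of both days correlated at −0.0487 to 0.0825 over 4 pairs, and those of differently numbered ones at −0.0995 to 0.0998. Whether the numbers of the replicates mark a shared batch was not tested. With a replicate block 945 genes rose and 832 fell; with the one exception of ENSBTAG00000004555 (log2 fold change 2.98 with the block), no named ID lost its call. Under the rule for switches, leaving out 1 library could only keep or add IDs. Switched-on IDs (17) then ranged from 18 to 22 and switched-off IDs (1) from 1 to 4. They were 32 and 4 with off under 0.2 CPM, 11 and 0 with on at 2 CPM, and 1 and 1 with all 4 required. With 1 library left out, the difference in IDs that hold 50% of the counts was 325 to 353, that in the share of the 10 most abundant IDs −5.45 to −4.79 percentage points, and the exact p at least 0.0571, the lowest such a design allows; the difference in detected IDs was 189 to 323. At 8-fold in place of 4-fold, day 0 replicates 1 to 4 lay apart in 3, 5, 10 and 7 IDs and day 5 replicates 1 to 4 in 218, 10, 2 and 9. Below 1 CPM, where 1 count is worth 0.0391 to 0.0492 CPM, depth limits both the calls and the switches.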
